A study of Homo sapiens with 12 samples.

Results

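SK-OV-3, an established human ovarian cancer cell line, was compared after 24 h with 2 drugs together and after 24 h with their solvent. The combination held 300 nM doxorubicin, an anthracycline that traps topoisomerase II on DNA and leaves strand breaks, and 3 μM IN10018, an inhibitor of focal adhesion kinase (FAK). The controls received DMSO. Each of these groups had 3 libraries, so the comparison used 6 of the 12 libraries of the series, and the other 6 came from cells given 300 nM doxorubicin alone or 3 μM IN10018 alone for the same time. All libraries came from this 1 cell line in culture, and no label or method states whether the replicates of a treatment were grown as separate cultures. The p-values therefore describe library-to-library spread, which may be technical.

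Expression was given as FPKM, fragments scaled to transcript length and to the reads of the library. Rows sharing a gene symbol were summed, and 10595 of 59391 symbols passed the minimum of 1 FPKM in 3 or more of these 6 libraries. A gene under 1 FPKM in every DMSO library passed only if every combination library reached 1 FPKM. Such a gene could only be higher with the combination, so its direction is no support for its list. The named genes that passed in this way include IL6, CXCL10, TNFAIP3, ATF3, ANKRD1 and EXO1. AEN, CLDN4, CXCL3 and CDC25A also had DMSO means under 1 FPKM, so their direction is to be read with the same limit. A log2 fold change is the difference between group means of log2(FPKM + 1), which understates the change of genes near 1 FPKM, and SE is its standard error. A number in parentheses after a gene or its levels is that log2 fold change, and one after a left-out library or another setting is the adjusted p found there. A gene was called at an adjusted p under 0.05 in limma, fitted to all 12 libraries with Benjamini-Hochberg adjustment over the 10595 genes. Levels are totals over all cells of a culture, so more RNA per cell and more cells with that RNA cannot be told apart.

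FAK, encoded by PTK2, relays signals from integrins, the receptors that hold cells to matrix, to Src family kinases and the actin skeleton. DNA breaks left by anthracyclines start a damage response that reaches the NF-κB pathway, in which inhibitory IκB proteins hold transcription factors in the cytoplasm until they are degraded. In replication, origins are licensed by loading MCM helicases, and E2F factors drive many genes of this machinery.

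The libraries held 9863414 to 12900095 recovered reads with the combination and 10745833 to 12458618 with DMSO. Along the leading axis of spread within treatments, which held 58.8% of that spread, DMSO replicate 2 (score 36.0), IN10018 replicate 1 (35.4) and combination replicate 2 (24.9) stood apart. Scores of the other libraries ran from -23.5 in IN10018 replicate 2 to 6.36. DMSO replicate 1 (-21.5) and combination replicate 1 (-21.4) lay near that low end. Of all FPKM, genes of small RNAs held 40.7% in combination replicate 1, 22.9% and 27.3% in combination replicates 2 and 3, and 17.3% to 31.5% with DMSO. The part of these differences in the results was not tested. KRT7, KRT8, KRT18 and KRT19, keratins of simple epithelia, lay at 17.0 to 368 FPKM, and ERBB2, amplified in this line, at 73.0 to 124 FPKM. The epithelial marker EPCAM was lower, at 2.29 to 4.91 FPKM. Of 11 markers of leukocytes, endothelium and fibroblasts, 9 stayed under 1 FPKM in all 6 libraries, among them PTPRC, CD3E and CDH5. The exceptions were the fibroblast marker LUM at 7.64 to 15.98 FPKM and the myeloid marker LYZ at 0.220 to 1.72 FPKM. Summed over the 11, the markers lay at 11.9 to 16.4 FPKM with DMSO and at 8.19 to 10.9 FPKM with the combination, and without LUM at 0.443 to 1.09 and 0.539 to 2.14 FPKM.

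Most differences were increases. In the combination, 1597 genes (15.1% of those tested) were called higher and 134 (1.26%) lower than with DMSO. Log2 fold changes had a median of 0.20 over all genes, and 7607 of the 10595 were positive. Each library's own median difference from the DMSO mean was 0.14, 0.16 and 0.34 in combination replicates 1, 2 and 3. After median-ratio scaling, which sets the median near 0 (-0.03), 840 genes were higher and 432 lower, and under quantile normalization 942 and 517. All 840 were among the 1597 (52.6% of them), as were 129 of the 134 lower genes (96.3%). The main counts fell to 997 higher and 75 lower without DMSO replicate 3, and to 682 and 53 without combination replicate 3. The lower count was also 78 without DMSO replicate 1 and 84 without combination replicate 2. In 2669 genes (25.2%) all combination libraries lay above all DMSO libraries, and in 457 (4.31%) below.

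**Figure D1:**
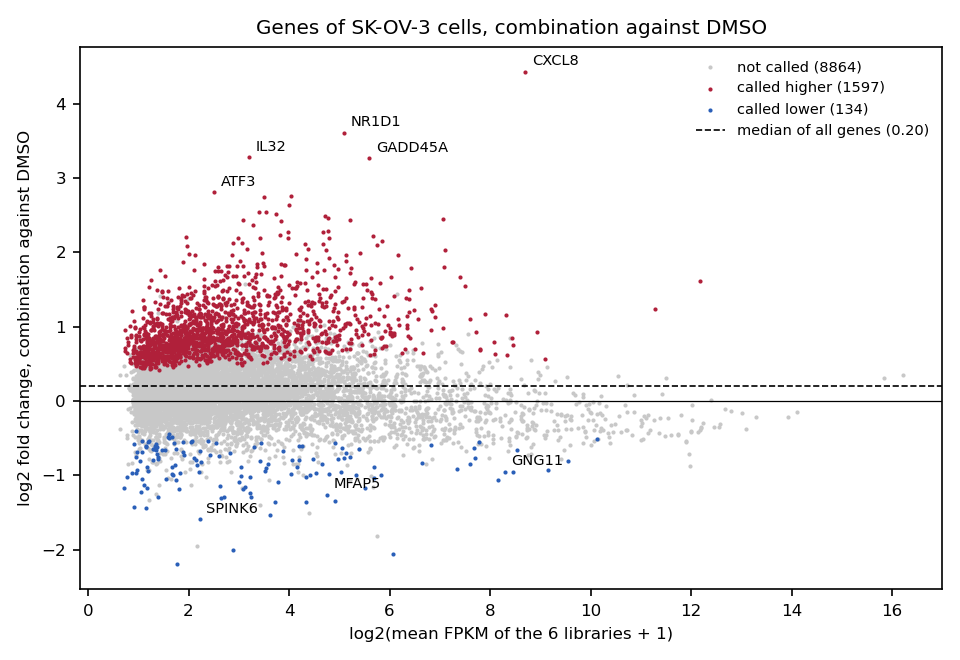
Each point is 1 of the 10595 genes, with its log2 fold change between the combination and DMSO on the vertical axis and the log2 of its mean FPKM over the 6 libraries plus 1 on the horizontal axis. Red points were called higher (1597), blue points lower (134), and the dashed line is the median of all genes (0.20), so most of the cloud lies above 0.

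The called genes differed in kind. Protein-coding genes made up 93.9% of the genes called higher, 86.6% of all genes tested and 40.3% of the genes called lower. Pseudogenes were 35 of the 134 lower genes (26.1%) against 5.20% of all genes. The median GC content was 56.3% in the genes called higher, 47.7% in all genes and 45.7% in those called lower, and the median transcript length was 2958, 3124 and 974 bases in the same order. When each library was corrected for GC content and length, 1251 genes were higher and 1114 lower, with 1005 of the 1597 higher genes and 123 of the 134 lower genes called again. Of the called genes named here, 0 lost the call under this correction, but sizes changed. The log2 fold change went from 2.23 to 1.45 in POLD1, from 1.19 to 0.44 in BCL3 and from -1.26 to -1.47 in MFAP5. Whether GC content and length caused these differences was not tested.

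On the log2(FPKM + 1) scale the largest increase was in CXCL8, which encodes interleukin-8, a chemokine that draws neutrophils. CXCL8 (GRCh38 chromosome 4, 73740506 to 73743716) stood at 33.7, 32.5 and 37.6 FPKM in DMSO replicates 1, 2 and 3 and at 679, 582 and 1129.8 FPKM in combination replicates 1, 2 and 3. All 3 combination libraries lay far above all 3 DMSO libraries, with means of 34.6 ± 2.66 and 797 ± 292 FPKM (SD, n = 3 each), a ratio of 23.1 and a log2 fold change of 4.43 (SE 0.32, limma adjusted p = 4.34e-06). NR1D1, which encodes the clock repressor REV-ERBα (GRCh38 chromosome 17, 40092787 to 40100725), rose from 4.12 ± 0.944 to 62.2 ± 16.9 FPKM, by 3.61 on the log2 scale. IL32, a cytokine gene, rose from 0.275, 1.07 and 0.667 to 9.63, 22.6 and 14.97 FPKM, by 3.28, and its ratio of mean FPKM was 23.4. GADD45A, a stress gene of growth arrest (GRCh38 chromosome 1, 67685061 to 67688338), stood at 9.42, 6.96 and 7.68 FPKM with DMSO and 86.7, 67.3 and 107 FPKM with the combination, and rose by 3.27. ATF3, a stress-induced transcription factor gene, rose by 2.81, from under 1 FPKM in each DMSO library to 10.2, 7.35 and 9.42 FPKM.

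Others among the largest increases were AP5B1, a subunit gene of an endosomal adaptor complex (2.49), SPATA2L (2.44), NOXA1, an activator of the superoxide-making NADPH oxidase NOX1 (2.44), and CLDN1, a tight junction gene (2.47). AP5B1 stood at 6.14, 7.45 and 6.58 FPKM with DMSO and 30.5, 46.0 and 54.0 FPKM with the combination. SPATA2L stood at 9.43, 10.9 and 10.9 FPKM against 49.2, 64.2 and 71.0 FPKM. Each of these increases kept its call in every alternative in which the gene was tested, median-ratio scaling and the omission of any 1 library included.

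**Figure D2:**
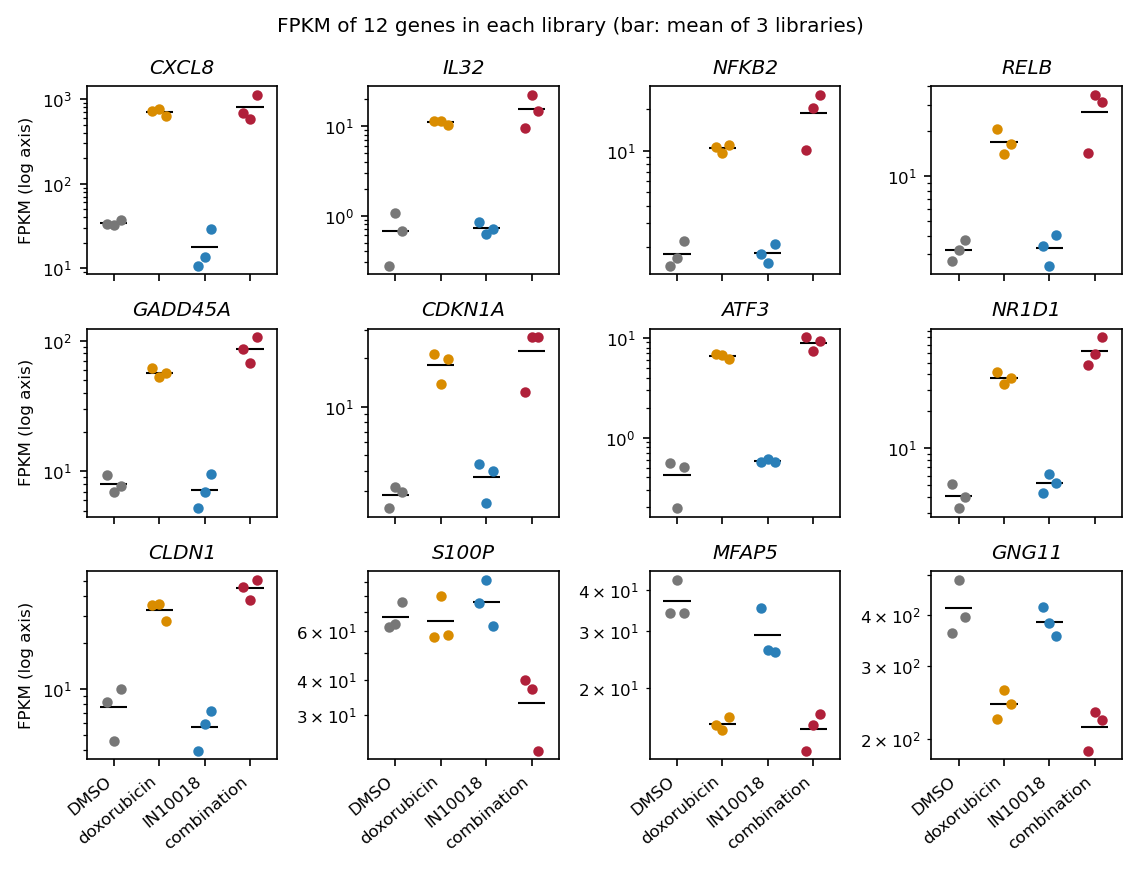
FPKM of 12 genes on a log axis in each of the 12 libraries, by treatment, with a bar at the mean of the 3 libraries. In CXCL8, IL32, NFKB2, RELB, GADD45A, CDKN1A, ATF3, NR1D1 and CLDN1 all 3 combination libraries lie above all 3 DMSO libraries, and in S100P, MFAP5 and GNG11 they lie below.

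The decreases were smaller. SPINK6, a serine protease inhibitor gene (GRCh38 chromosome 5, 148202794 to 148215137), fell from 6.09, 4.95 and 6.29 FPKM to 3.18, 0.128 and 1.41 FPKM, with a log2 fold change of -1.59 (SE 0.36, limma adjusted p = 0.00848). Its 3 combination libraries were spread more widely than the DMSO libraries, and the call was lost without a filter on low values (0.0511). MFAP5, a microfibril protein gene (GRCh38 chromosome 12, 8637346 to 8662888), fell from 34.2, 43.2 and 34.0 to 12.8, 15.3 and 16.6 FPKM, with a log2 fold change of -1.26. GNG11, a G protein γ subunit gene, stood at 363, 488 and 395 FPKM with DMSO and 187, 232 and 222 FPKM with the combination (-0.95). The collagenase gene MMP13 (-0.95), the homeobox gene HOXB8 (-0.86) and UGT2B7, a glucuronidation enzyme gene (-0.80), fell too, and none of these 6 genes lost its call when 1 library was left out.

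S100P, a calcium-binding protein gene, fell from 61.8, 63.6 and 76.4 to 40.03, 37.4 and 22.4 FPKM, with a log2 fold change of -1.03 (adjusted p = 0.012 in limma). Its call was lost without DMSO replicate 3 (0.0547) or combination replicate 3 (0.0753). S100P had a log2 fold change of -0.06 with doxorubicin alone and 0.17 with IN10018 alone, neither called, and of -0.97 between the combination and doxorubicin (adjusted p = 0.229). PPP1R14B, an inhibitor gene of protein phosphatase 1 (-0.96), PRDX1, a peroxiredoxin that removes hydrogen peroxide (-1.06), and MRPS28, a mitochondrial ribosomal protein gene (-0.80), each lost the call without DMSO replicate 2 (adjusted p = 0.056, 0.0603 and 0.0681) or combination replicate 3 (0.0667, 0.0892 and 0.0829). Among the other largest decreases, AKR1C3 (-0.95), a carbonyl reductase gene, COX7B2 (-0.81), DNAJC12 (-0.78) and SPP1 (-0.77), the gene of osteopontin, lost their calls in 9, 8, 4 and 10 of the 12 fits without 1 library, with limma adjusted p up to 0.16, 0.161, 0.113 and 0.147.

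NF-κB genes were among the most widely raised. Of 18 measured genes of NF-κB subunits and feedback regulators, 13 were called higher (72.2% beside 15.1% of all genes) and 0 lower. Their median log2 fold change was 1.00 beside 0.20 for all genes. After median-ratio scaling the count was 11 with a median of 0.73, and without combination replicate 3 it was 8. NFKB2 (GRCh38 chromosome 10, 102394110 to 102402529) and RELB (GRCh38 chromosome 19, 45001430 to 45038198), the subunits of the alternative NF-κB pathway, led the list. NFKB2 stood at 1.46, 1.66 and 2.21 FPKM with DMSO and 10.2, 20.5 and 25.5 FPKM with the combination (a log2 fold change of 2.75, SE 0.26, limma adjusted p = 3.98e-05). RELB stood at 2.69, 3.22 and 3.76 FPKM with DMSO and 14.4, 35.2 and 31.4 FPKM with the combination (2.64, SE 0.29, limma adjusted p = 9.14e-05). In both genes the groups were far apart, and combination replicate 1 was the lowest of its group.

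Inhibitors of the pathway rose with its subunits. TNFAIP3, a ubiquitin-editing enzyme that shuts the pathway off, rose by 1.68, from under 0.5 FPKM in each DMSO library to 2.30, 3.35 and 4.63 FPKM. NFKBIE and NFKBIB, which encode IκB proteins, rose by 1.69 and 1.27, and BCL3, an atypical IκB protein gene, by 1.19. The call of NFKBIE was lost without combination replicate 3 (adjusted p = 0.0538). NFKBIA, the gene of IκBα, stood at 13.0, 11.0 and 13.7 FPKM against 29.1, 24.8 and 29.001 FPKM (1.08).

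Of 19 measured genes of secreted inflammatory factors, 13 were called higher (68.4% beside 15.1% of all genes) and 0 lower, with a median of 1.08. With median-ratio scaling 13 were higher and 1 lower. IL6 and CXCL10, under 1 FPKM in every DMSO library, passed the minimum only through the combination libraries. The DMSO mean of CXCL3 was also under 1 FPKM. The count of 13 includes these genes, whose direction is no support for the list. IL6, the gene of interleukin-6, stood at 0.465, 0.213 and 0.450 FPKM with DMSO and 4.51, 5.44 and 6.22 FPKM with the combination (2.21). CXCL2, a neutrophil chemokine gene, rose from 1.77 ± 0.628 to 8.30 ± 2.45 FPKM (1.74). CXCL10, a chemokine gene for activated T cells, was at 0.137, 0.225 and 0.0792 FPKM with DMSO and 3.71, 1.78 and 2.37 FPKM with the combination (1.63), and GDF15, a stress cytokine gene, rose by 1.62. CXCL1 rose from 23.3, 23.9 and 18.9 to 37.8, 40.6 and 64.2 FPKM (1.04) and CXCL3 by 1.08, and CXCL1 lost its call without DMSO replicate 3 (adjusted p = 0.063) or combination replicate 3 (0.0908). CXCL1, CXCL2 and CXCL3 are near copies of each other, so reads may have been divided between them. Of the 19, 6 were not called and 3 had negative log2 fold changes. TNFSF10, the gene of the death ligand TRAIL, was one of these, at 10.5, 7.12 and 8.35 FPKM with DMSO and 5.77, 5.12 and 5.99 FPKM with the combination. Its log2 fold change of -0.53 was not called, and became -0.80 (adjusted p = 0.00956) after median-ratio scaling. It was also called lower under quantile normalization (0.0106) and the GC and length correction (0.00874).

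Because these genes moved together, the 250 bases before their RefSeq start were searched for the κB letters GGNNTTTCC on both strands. The match was present in 7 of the 9 secreted factors called higher that had a promoter sequence, and in 4 of 11 NF-κB genes called higher. Over all measured members it was in 7 of 13 secreted factors and 5 of 15 NF-κB genes, beside 6.58% of all genes called higher, 5.92% of all genes tested and 5.48% of 27305 promoters (GRCh38.p14). It was also in 3 of 19 immediate early and ERK feedback genes, 6 of 42 replication genes and 0 of 14 G2 entry genes. The letters TGACTCA of the transcription factor AP-1 were in 3 of 13 secreted factors and 0 of 15 NF-κB genes, beside 2.47% of all genes tested. The windows shown surround the match nearest to the start in the 7 secreted factors and in 2 inhibitor genes, NFKBIA and TNFAIP3. They were picked after their values were seen, since both groups of genes rose. Capitals mark the match, and each is written 5′ to 3′ on the strand of the gene.
CXCL8 (chr4:73740458-73740506, plus strand): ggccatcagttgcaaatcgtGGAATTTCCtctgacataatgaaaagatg
CXCL1 (chr4:73869315-73869368, plus strand): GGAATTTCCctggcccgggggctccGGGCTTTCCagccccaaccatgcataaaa
CXCL2 (chr4:74099220-74099272, minus strand): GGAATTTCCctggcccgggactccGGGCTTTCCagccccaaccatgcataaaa
CXCL3 (chr4:74038714-74038767, minus strand): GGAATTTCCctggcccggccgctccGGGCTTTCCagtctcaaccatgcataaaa
CXCL10 (chr4:76023645-76023693, minus strand): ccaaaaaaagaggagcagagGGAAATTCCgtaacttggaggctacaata
IL6 (chr7:22727108-22727156, plus strand): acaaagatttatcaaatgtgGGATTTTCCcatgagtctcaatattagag
IL32 (chr16:3065315-3065363, plus strand): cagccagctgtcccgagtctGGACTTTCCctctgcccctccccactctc
NFKBIA (chr14:35404802-35404850, minus strand): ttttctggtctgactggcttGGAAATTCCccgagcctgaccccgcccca
TNFAIP3 (chr6:137867184-137867232, plus strand): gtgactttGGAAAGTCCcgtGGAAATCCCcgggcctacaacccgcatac
The windows of CXCL1, CXCL2 and CXCL3 each hold 2 matches, with the same letters in capitals in all 3 genes. Distances are from the RefSeq start of each gene, which can differ from the first base of the gene spans given here from another annotation. The match begins 91 bases before the RefSeq start in CXCL8 (position 73740569) and 72 bases before it in IL6. A match describes these letters only and is not evidence of binding.

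The next list joined immediate early genes, which cells switch on within minutes of a stimulus, with feedback genes of the kinase ERK. Of 27 measured members, 17 were called higher at 24 h (63.0% beside 15.1% of all genes) and 0 lower. Their median was 1.04, and the counts were 13 and 0 after median-ratio scaling. JUN, a subunit of the AP-1 transcription factor, stood at 4.73, 3.5998 and 4.68 FPKM with DMSO and 18.7, 24.1 and 32.9 FPKM with the combination (2.27, SE 0.21, limma adjusted p = 3.51e-05). The AP-1 partners FOSL2 and FOSL1 rose by 1.88 and 1.74, and KLF10, a zinc finger factor gene, by 2.28. PPP1R15A, which encodes a subunit that restores translation after stress, rose from 5.18 ± 0.913 to 21.6 ± 5.84 FPKM (1.85). JUNB stood at 58.5, 85.0 and 68.3 FPKM against 69.8, 159 and 157 FPKM and was not called (0.78, adjusted p = 0.113), though it was called without combination replicate 1 (0.00728).

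CDKN1A, the gene of the cell cycle inhibitor p21 (GRCh38 chromosome 6, 36676460 to 36687339), stood at 2.34, 3.15 and 2.96 FPKM with DMSO and 12.2, 26.9 and 26.9 FPKM with the combination (2.52, SE 0.29, limma adjusted p = 0.000121). PIDD1, a death domain gene, rose from 1.92, 2.86 and 2.22 to 12.5, 20.6 and 23.5 FPKM (2.54), and AEN, an apoptosis-enhancing nuclease gene, by 1.23. TNFRSF10B, the gene of the TRAIL receptor DR5, rose by 1.03, a call that was lost without DMSO replicate 2 (adjusted p = 0.0598) or combination replicate 3 (0.0868). BAX, which opens the outer mitochondrial membrane, overlapped between the groups (13.0, 23.6 and 12.6 FPKM with DMSO and 12.8, 28.6 and 21.7 FPKM with the combination, log2 fold change 0.33, adjusted p = 0.522).

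Genes of the DNA replication machinery had the most calls of any list. Of 48 measured licensing and fork genes, 33 were called higher and 0 lower (68.8% beside 15.1% of all genes), the median was 0.80, and in 40 all combination libraries lay above all DMSO libraries, beside 25.2% of all genes. With median-ratio scaling 27 were higher and 0 lower, with a median of 0.55, and without 1 library the count stayed between 23 and 35. POLD1, the catalytic subunit of DNA polymerase δ (GRCh38 chromosome 19, 50384204 to 50418016), stood at 3.02, 4.09 and 3.81 FPKM with DMSO and 11.0, 25.5 and 31.0 FPKM with the combination (2.23, SE 0.29, limma adjusted p = 0.000276). DTL, which marks the licensing factor CDT1 for destruction (GRCh38 chromosome 1, 212035553 to 212107400), stood at 2.41, 1.27 and 1.85 FPKM with DMSO and 12.7, 8.84 and 14.7 FPKM with the combination (2.19, SE 0.22, limma adjusted p = 5.42e-05). Both rose, and so did CDT1 itself, from 6.25, 5.53 and 6.07 to 17.7, 29.4 and 34.6 FPKM (1.97). The helicase loader CDC6 rose by 1.49, the helicase subunit MCM7 by 1.31, and CHAF1A, a chromatin assembly factor, by 1.28. PCNA, the sliding clamp of the fork, was not called, with 38.4, 34.2 and 30.4 FPKM against 43.9, 35.1 and 44.7 FPKM (0.25, adjusted p = 0.453).

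**Figure D3:**
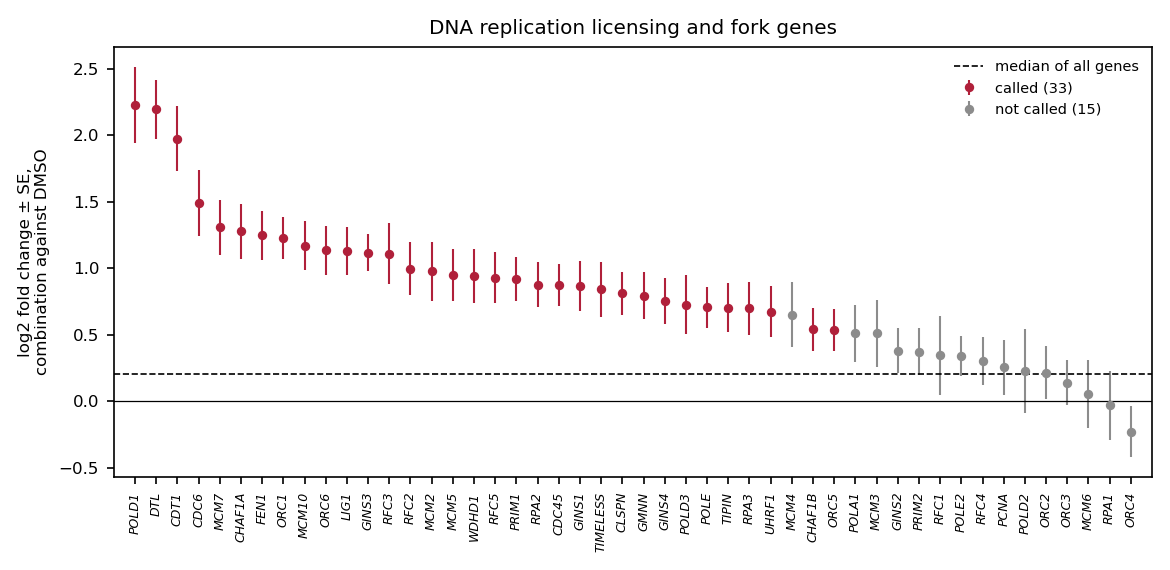
Log2 fold change between the combination and DMSO (points) with its SE (bars) for the 48 measured DNA replication genes, in order of size. The 33 called genes are red, the 15 others grey, and the dashed line is the median of all genes (0.20). POLD1, DTL and CDT1 stand at the left end with values of 2.23, 2.19 and 1.97.

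Upstream of these genes the E2F letters TTTCCCGC or TTTGGCGC, on either strand, were found in 13 of the 42 measured replication genes with a promoter sequence (31.0%), and in 7 of the 28 called higher, beside 1.96% of 27305 promoters and 3.85% of the genes called higher. Of those 7, the 5 windows shown are from genes of licensing (MCM7, CDT1, DTL), of clamp loading (RFC3) and of strand ligation (LIG1), chosen after their values were seen. Capitals mark the match, and each window is on the gene's strand and before the RefSeq start, which for DTL is at position 212035748, inside the gene span given above.
MCM7 (chr7:100101557-100101604, minus strand): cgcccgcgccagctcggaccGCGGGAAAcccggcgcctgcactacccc
CDT1 (chr16:88803734-88803781, plus strand): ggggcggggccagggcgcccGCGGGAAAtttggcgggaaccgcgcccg
RFC3 (chr13:33818074-33818121, plus strand): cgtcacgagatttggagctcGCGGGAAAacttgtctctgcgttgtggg
LIG1 (chr19:48170431-48170478, minus strand): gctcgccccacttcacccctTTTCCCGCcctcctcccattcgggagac
DTL (chr1:212035720-212035747, plus strand): atcagagagcgtgacgtcagTTTGGCGC
RFC3 stood at 4.04, 3.18 and 3.74 FPKM with DMSO and 8.83, 7.46 and 11.0 FPKM with the combination (1.11), and LIG1 at 2.10, 1.89 and 2.14 FPKM with DMSO and 4.33, 6.09 and 6.76 FPKM with the combination (1.13). The windows of MCM7, CDT1 and RFC3 carry the same 8 letters.

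Of 11 measured enzymes of deoxynucleotide supply, 3 were called higher and 0 lower (27.3% beside 15.1% of all genes), 2 after median-ratio scaling and 1 without combination replicate 3. TYMS, thymidylate synthase, rose from 3.41, 2.88 and 2.54 to 7.41, 6.02 and 9.25 FPKM (1.11). TK1, thymidine kinase, stood at 19.7, 36.8 and 21.2 FPKM with DMSO and 40.2, 114 and 97.8 FPKM with the combination (1.58), and RRM2, a ribonucleotide reductase subunit, at 4.14, 3.21 and 4.32 FPKM with DMSO and 7.66, 6.21 and 9.51 FPKM with the combination (0.84). Without combination replicate 3 both calls were lost (adjusted p = 0.0673 and 0.0971), and that of RRM2 also without DMSO replicate 2 (0.053). Among 21 E2F, retinoblastoma and G1 cyclin genes, 3 were higher and 0 lower (E2F1, E2F7 and CCNE1), 14.3% beside 15.1% of all genes. The count was 0 without combination replicate 3, 1 without DMSO replicate 2, and 5 without combination replicate 1 or IN10018 replicate 1. E2F1 stood at 18.1, 31.8 and 21.8 FPKM with DMSO and 33.9, 88.8 and 95.9 FPKM with the combination (1.47, adjusted p = 0.0106). After median-ratio scaling the adjusted p of E2F1 was 0.0603, and without combination replicate 3 it was 0.0712.

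Genes of entry into mitosis rose on both the braking and the driving side. Of 18 measured G2 entry genes, 9 were called higher and 0 lower, beside 15.1% of all genes called higher. Their median was 0.60, beside 0.20 for all genes. The higher count was 5 after median-ratio scaling, and 5 without DMSO replicate 3 or combination replicate 3. PKMYT1, a kinase that restrains CDK1, rose from 1.63, 1.81 and 2.26 to 8.19, 19.1 and 24.4 FPKM (2.54, SE 0.30, limma adjusted p = 0.000154). CDC25B and CDC25A, phosphatases that release CDK1 and CDK2, rose by 0.98 and 0.97, and the mitotic transcription factors MYBL2 and FOXM1 by 1.40 and 0.84. CCNB1, the gene of cyclin B1, was not called, with 42.8, 40.4 and 46.3 FPKM with DMSO and 38.2, 34.0 and 42.3 FPKM with the combination (-0.18, adjusted p = 0.589). Of 40 spindle, kinetochore and condensin genes, 14 were higher and 0 lower, beside 15.1% of all genes called higher. The counts were 8 and 1 after median-ratio scaling. The higher count was 8 without DMSO replicate 2 and 4 without combination replicate 3. The kinesin KIF2C (1.42) and the mitotic kinase AURKB (1.00) kept their calls whichever library was left out.

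In DNA break signalling and repair, 13 of 37 measured genes were called higher (35.1% beside 15.1% of all genes) and 0 lower, with a median of 0.42. The counts were 10 and 2 with median-ratio scaling, and 6 and 0 without combination replicate 3. EXO1, a nuclease of mismatch and break repair, stood at 0.873, 0.533 and 0.787 FPKM with DMSO and 3.28, 2.89 and 3.82 FPKM with the combination (1.32). XRCC3 and BRCA1, which act in homologous recombination, rose by 1.29 and 1.21, and XRCC1, a single-strand break scaffold, by 1.09. H2AX, the histone variant marked at breaks, was at 39.8, 58.8 and 42.8 FPKM with DMSO and 44.7, 89.1 and 80.5 FPKM with the combination and was not called (0.55, adjusted p = 0.231), but was without combination replicate 1 (0.0421). TOP2A, the topoisomerase that doxorubicin acts on, stood at 28.2, 16.1 and 33.4 FPKM with DMSO and 43.0, 38.4 and 50.1 FPKM with the combination. Its groups did not overlap, yet the log2 fold change of 0.79 was not called (adjusted p = 0.0907), and it was called without IN10018 replicate 1 (0.039) and under the GC and length correction (0.0197).

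Lipid genes were set beside each single drug, which share the DMSO libraries with the combination. SCD, the desaturase that makes monounsaturated fatty acids (GRCh38 chromosome 10, 100347124 to 100364834), stood at 12.8, 7.68 and 12.6 FPKM with DMSO and 22.4, 20.1 and 26.6 FPKM with the combination. It rose by 1.02 (SE 0.23, limma adjusted p = 0.00857), while its log2 fold change was -0.62 with doxorubicin alone (adjusted p = 0.12) and 1.96 with IN10018 alone (adjusted p = 0.00762). INSIG1, a sterol sensor partner of the endoplasmic reticulum, was at 1.52, 1.26 and 1.76 FPKM with DMSO and 3.25, 2.87 and 4.08 FPKM with the combination (0.80), with -0.42 for doxorubicin and 1.18 for IN10018, neither called. Both calls were lost without combination replicate 3 (adjusted p = 0.0547 and 0.0696). FADS3 and FADS1, of the fatty acid desaturase cluster, rose by 1.51 and 1.04, and MVD, of the mevalonate pathway, from 17.3, 19.1 and 17.4 to 34.7, 52.5 and 62.3 FPKM (1.39). For MVD the log2 fold changes were 0.91 with doxorubicin, which was called, and 0.65 with IN10018, which was not.

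Over whole lists, 6 of 28 cholesterol genes were called higher and 0 lower with the combination (median 0.50), and 5 of 15 fatty acid genes higher and 0 lower (0.51). The shares called higher were 21.4% and 33.3%, beside 15.1% of all genes. After median-ratio scaling the higher counts were 2 and 3, and without combination replicate 3 they were 1 and 2. Without DMSO replicate 3 or combination replicate 2 the count was 3 in each list, and without combination replicate 1 it was 10 among the cholesterol genes. With doxorubicin alone the medians were -0.07 and -0.21, beside -0.02 for all genes, and with IN10018 alone 0.44 and 0.27, beside 0.00. The order of SCD across the treatments was thus lowest with doxorubicin, then DMSO, the combination and IN10018, at means of 6.74 ± 1.23, 11.0 ± 2.90, 23.0 ± 3.30 and 45.3 ± 7.93 FPKM (SD, n = 3 each). Between neighbours in this order, the difference between doxorubicin and DMSO was not called (adjusted p = 0.12 in limma), while those between DMSO and the combination and between the combination and IN10018 (adjusted p = 0.0122) were.

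**Figure D4:**
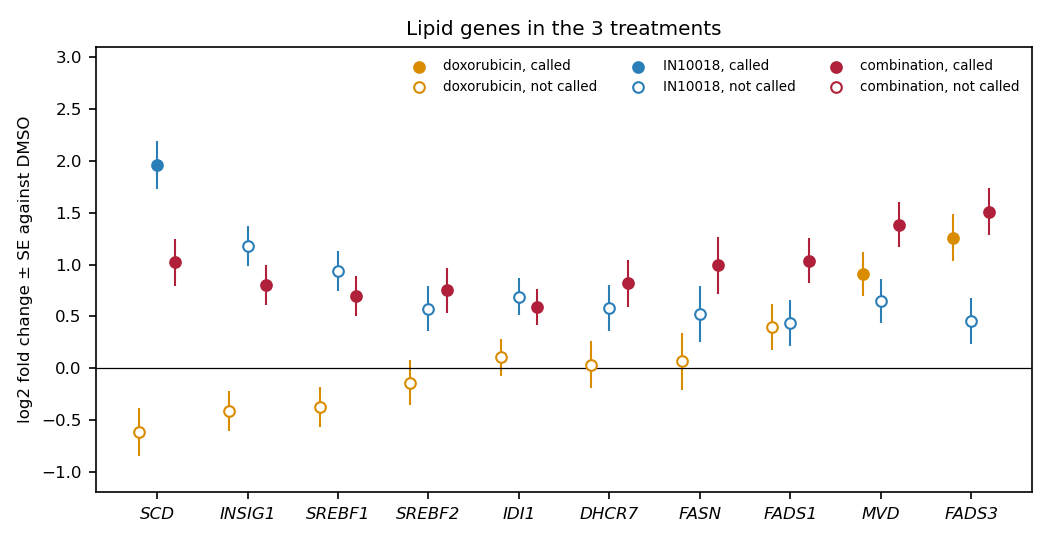
Log2 fold change against DMSO with its SE for 10 lipid genes in each treatment. Filled points were called and open points not. SCD lies at -0.62 with doxorubicin, 1.96 with IN10018 and 1.02 with the combination, and FADS3 at 1.26, 0.46 and 1.51.

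Genes around FAK were called about as often as genes in general. PTK2, the gene of FAK on chromosome 8, stood at 3.95, 2.002 and 3.65 FPKM with DMSO and 3.38, 2.61 and 3.69 FPKM with the combination, with a log2 fold change of 0.03 (SE 0.23, limma adjusted p = 0.941), and -0.19 after median-ratio scaling. Of 17 measured FAK, Src and adaptor genes, 3 were called higher and 0 lower (17.6% beside 15.1% of all genes), and 1 and 1 after median-ratio scaling. Without DMSO replicate 1 or 3 or combination replicate 2 or 3 only BCAR1 was called. BCAR1, the gene of the FAK substrate p130Cas (GRCh38 chromosome 16, 75228187 to 75268053), rose from 3.45, 3.498 and 3.39 to 6.06, 17.4 and 20.5 FPKM (1.66, adjusted p = 0.00412). Combination replicate 1 lay far below replicates 2 and 3 in this gene, though above all DMSO libraries.

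Of 31 integrin and actin linker genes, 2 were called higher and 0 lower (6.45%), with a median of 0.12 that became -0.10 after median-ratio scaling. The count was 1 without any 1 DMSO or doxorubicin library or combination replicate 2 or 3, and 4 without combination replicate 1. The integrin β1 gene ITGB1 overlapped between the groups, with 93.2, 48.7 and 87.0 FPKM with DMSO and 70.1, 55.6 and 77.5 FPKM with the combination (-0.13, adjusted p = 0.824). Among 21 genes of YAP and its targets, 3 were higher and 0 lower (14.3% beside 15.1% of all genes), 2 and 3 after median-ratio scaling, and 7 higher without combination replicate 1. ANKRD1, a classic YAP target, was at 0.0405, 0.134 and 0.564 FPKM with DMSO and 3.12, 2.70 and 3.72 FPKM with the combination (1.76), and CCN1, a matricellular gene, rose by 1.42. In the STAT3 list, 2 of 13 genes were higher and 0 lower (15.4%, and 4 higher without combination replicate 1). These were the kinase genes PIM3 and PIM1, which rose by 1.65 and 1.26, while STAT3 itself stood at 12.7, 7.27 and 10.9 FPKM with DMSO and 12.1, 10.6 and 15.3 FPKM with the combination (0.29, adjusted p = 0.459).

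Matrix genes moved both ways. Of 33 measured, 8 were called higher and 4 lower (24.2% and 12.1%, beside 15.1% and 1.26% of all genes), 4 and 5 after median-ratio scaling, and 4 and 2 without combination replicate 3. Leaving out any 1 DMSO library gave 4 or 5 higher and 2 lower, and combination replicate 2 gave 4 and 2. The lower count was also 2 without any 1 doxorubicin library or IN10018 replicate 3. PLAU, the gene of the protease urokinase, rose from 14.1, 11.6 and 14.2 to 39.1, 39.8 and 55.3 FPKM (1.67). The collagen genes COL6A2 and COL18A1 rose by 1.59 and 1.502, and LAMB3, a laminin chain, by 1.24. Beside MFAP5, MMP13 and SPP1, the stromelysin gene MMP10 fell, from 2.78, 3.81 and 3.17 to 0.980, 1.15 and 1.94 FPKM (-0.87). Without the 3 libraries that stood apart, neither COL18A1 (adjusted p = 0.0549) nor MMP10 (0.0635) was called.

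Among 17 genes of epithelial state, 7 were called higher (41.2% beside 15.1% of all genes) and 0 lower, and 6 were higher with median-ratio scaling. The tight junction genes CLDN1 (8.18, 4.62 and 10.1 to 46.2, 38.1 and 51.2 FPKM), CLDN3 (1.49) and CLDN4 (1.12) rose. KRT80, a keratin gene, rose from 9.87, 7.58 and 8.04 to 29.3, 43.6 and 49.0 FPKM (2.11). So did SNAI2, which encodes a repressor of epithelial genes, from 4.35, 2.34 and 3.57 to 18.3, 12.4 and 19.1 FPKM (1.996). Of 17 clock genes, 5 were higher (29.4% beside 15.1% of all genes) and 0 lower, with and without median-ratio scaling. NFIL3 (1.57) and CIART (1.17) came next to NR1D1. BHLHE41 (0.78) was not called without combination replicate 3 (adjusted p = 0.0606), and ARNTL, the gene of the clock activator BMAL1, rose by 0.73.

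Genes that display peptides to T cells were called higher at about the share of all genes. Of 17 measured MHC class I and peptide loading genes, 3 were called higher and 0 lower (17.6% beside 15.1%), and none after median-ratio scaling. HLA-C stood at 50.4, 68.1 and 54.9 FPKM with DMSO and 82.4, 164 and 141 FPKM with the combination (1.10, adjusted p = 0.024). HLA-B stood at 39.0, 67.8 and 41.1 FPKM with DMSO and 72.3, 145 and 116 FPKM with the combination (1.14, adjusted p = 0.0422). All combination libraries lay above all DMSO libraries in both, yet the calls were lost in 4 and 8 of the 12 fits without 1 library, with adjusted p up to 0.114 and 0.153. Without DMSO replicate 1 or 3 or combination replicate 2 or 3, none of the 17 was called. The count was 1 without any 1 doxorubicin library or IN10018 replicate 3, 5 without IN10018 replicate 1 and 7 without combination replicate 1. HLA genes are near copies of each other, so their division of reads is uncertain. B2M, the shared light chain, overlapped between the groups at 1037, 1497 and 947 FPKM with DMSO and 1056, 1315 and 1220.3 FPKM with the combination.

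Of 26 interferon genes, 7 were called higher (26.9% beside 15.1% of all genes) and 0 lower. The counts were 4 and 2 with median-ratio scaling, and 4 and 0 without combination replicate 3. IRF7, a transcription factor of the type I response (GRCh38 chromosome 11, 612553 to 615999), stood at 3.96, 5.30 and 3.99 FPKM with DMSO and 14.3, 33.5 and 27.5 FPKM with the combination (2.20, adjusted p = 0.000146). IRF3 rose by 1.31, the RNA sensor OAS3 by 1.19 and IRF1 by 1.13. IRF3 was not called after median-ratio scaling (adjusted p = 0.0532). ISG15, a ubiquitin-like interferon-stimulated gene, overlapped at 98.4, 174 and 127 FPKM with DMSO and 153, 296 and 189 FPKM with the combination and was not called (adjusted p = 0.112), but was without combination replicate 1 (0.0378) and under the GC and length correction (0.0437).

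Of 10 ligand genes read by NK and T cells, 4 were called higher and 0 lower, beside 15.1% of all genes called higher. With median-ratio scaling 1 of the 10 was higher, beside 840 of all 10595 genes. The higher count was 2 without combination replicate 2 or 3. PVR, a ligand of the receptors DNAM-1 and TIGIT, rose from 3.08, 1.94 and 2.58 to 5.68, 5.94 and 8.31 FPKM (1.11). MICA, a ligand of NKG2D, rose from 3.79, 5.84 and 3.69 to 8.98, 11.3 and 11.6 FPKM (1.11), with an adjusted p of 0.0591 after median-ratio scaling. Of 5 measured genes of complement components and surface regulators, 2 were called higher and 0 lower, and 2 had negative log2 fold changes. Their median was 0.11, beside 0.20 for all genes. After median-ratio scaling 1 was higher and 1 lower. The higher count was 1 without DMSO replicate 2 or combination replicate 1 or 3. Within this list C3, the central complement component, rose by 0.96, from 2.47 ± 0.604 to 5.69 ± 0.901 FPKM (SD, n = 3 each).

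Danger signals of immunogenic cell death are mostly proteins that move to the surface or leave the cell, which RNA does not measure. CALR, the gene of calreticulin (GRCh38 chromosome 19, 12938578 to 12944489), stood at 47.8, 41.1 and 39.6 FPKM with DMSO and 45.5, 57.0 and 68.1 FPKM with the combination, and was not called (0.39, SE 0.19, limma adjusted p = 0.191). It was called without combination replicate 1 (0.0469), and combination replicate 1 lay within the DMSO range. HMGB1 was at 73.7, 75.9 and 68.3 FPKM with DMSO and 74.4, 74.3 and 80.5 FPKM with the combination (0.07, adjusted p = 0.814), and its direction flipped to -0.24 after median-ratio scaling. HSP90B1, the gene of GRP94, overlapped too, at 49.8, 31.9 and 47.4 FPKM with DMSO and 45.9, 42.8 and 59.0 FPKM with the combination (0.20, and -0.10 after median-ratio scaling). EIF2S1, the gene of eIF2α, was at 15.02, 7.97 and 15.5 FPKM with DMSO and 20.02, 15.6 and 20.1 FPKM with the combination (0.54, adjusted p = 0.178). Of all 16 measured genes of this list, 2 were higher (12.5% beside 15.1% of all genes) and 1 lower. The higher count was 1 without DMSO replicate 2 or combination replicate 3, and the lower count 0 without DMSO replicate 1 or 3 or combination replicate 2. XBP1, a transcription factor of endoplasmic reticulum stress, rose from 14.8, 11.8 and 14.8 to 27.0, 29.4 and 32.1 FPKM (1.05), and kept its call in all alternatives. EIF2AK3, the gene of the eIF2α kinase PERK, rose by 0.74, but was not called without DMSO replicate 2 (adjusted p = 0.0508) or combination replicate 3 (0.08). NT5E, the gene of CD73, which makes adenosine, fell from 10.9, 7.25 and 11.9 to 4.07, 3.95 and 5.25 FPKM (-1.005), a call lost without DMSO replicate 1 (0.0504), DMSO replicate 3 (0.065) or combination replicate 2 (0.0506).

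In the amino acid stress list of the transcription factor ATF4, 6 of 21 measured genes were called higher (28.6% beside 15.1% of all genes) and 0 lower. The higher count was 2 with median-ratio scaling, and 3 without combination replicate 3. SLC3A2, a subunit of amino acid transporters, rose from 33.9, 44.5 and 32.0 to 85.0, 180.2 and 136 FPKM (1.78), DDIT3, the gene of CHOP, by 1.39 and TRIB3, a pseudokinase gene, by 1.26. DDIT3 and TRIB3 were not called after median-ratio scaling (adjusted p = 0.0649 and 0.0844). ATF4 itself was at 133, 272 and 140.2 FPKM with DMSO and 75.7, 179 and 112 FPKM with the combination, and its log2 fold change of -0.57 was called lower only under the GC and length correction (0.0358). In the NRF2 list, 3 of 18 genes were higher (16.7% beside 15.1% of all genes) and 1 lower, 1 and 3 after median-ratio scaling, with MAFF, a small Maf partner of NRF2, at 1.41 and the autophagy receptor SQSTM1 at 1.00, the latter not called after median-ratio scaling (adjusted p = 0.0701). The lower gene was PRDX1, and no gene of the list was called lower without combination replicate 3. SR splicing factors gave 2 of 12 higher (16.7%), with SRSF7 at 0.98, and 1 without DMSO replicate 3 or combination replicate 3. Among 19 BCL2 family and caspase genes, 3 were higher (15.8% beside 15.1%) and 0 lower, 0 without combination replicate 3 or with median-ratio scaling, 1 without DMSO replicate 1 or 3, and 6 without combination replicate 1.

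**Figure D5:**
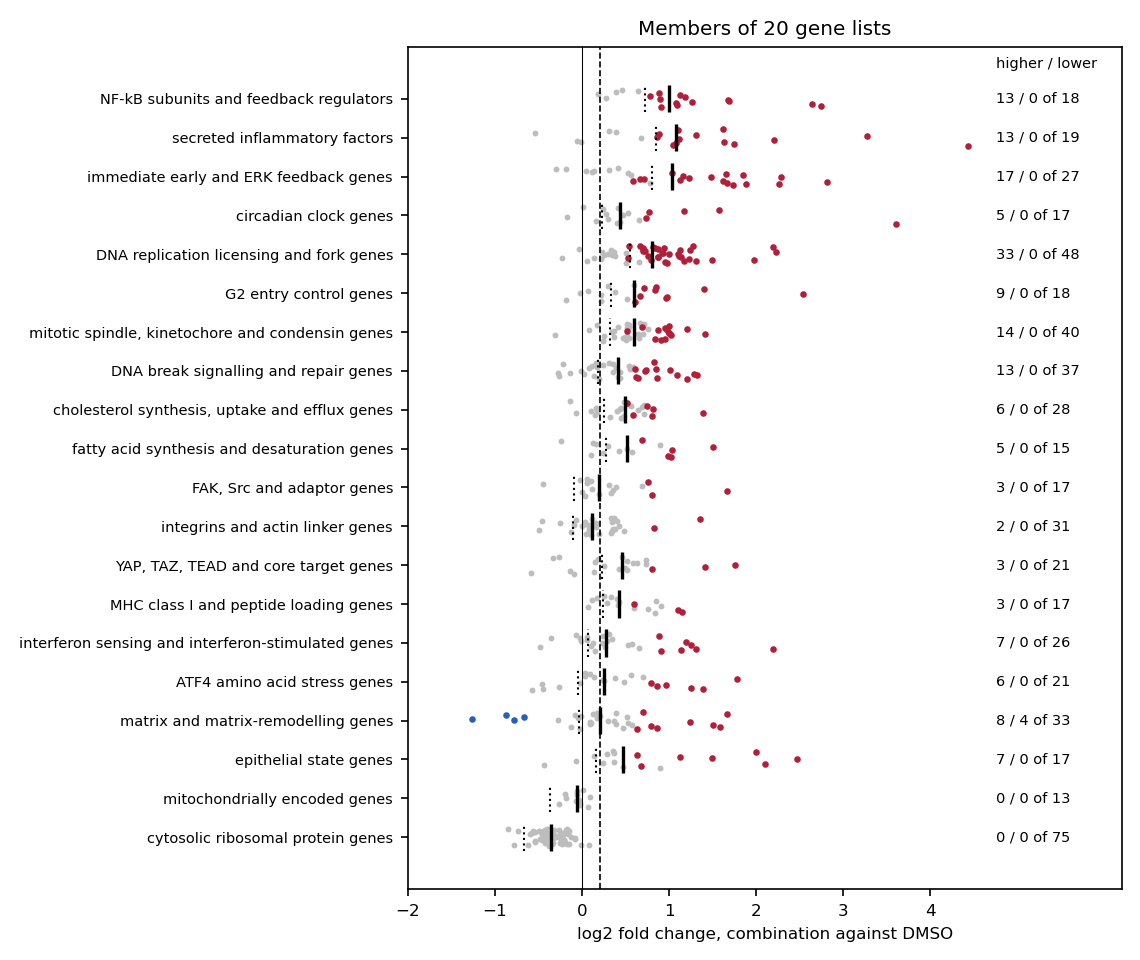
Log2 fold change between the combination and DMSO of each measured member of 20 gene lists (red called higher, blue called lower, grey not called), with the counts at the right. The solid tick is the list's median and the dotted tick its median after median-ratio scaling, and the dashed line is the median of all genes (0.20). The medians of NF-κB genes, inflammatory genes, and immediate early and ERK feedback genes lie at 1.00 to 1.08, and that of ribosomal proteins at -0.36.

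Of 75 cytosolic ribosomal protein genes, 0 were called in limma in either direction, with a median of -0.36 (-0.67 after median-ratio scaling), and 74 were negative. At an unadjusted p under 0.05 there were 9, and voom called 0. Without combination replicate 1, the library with the most small RNA, 7 were called lower, and under the GC and length correction 12. The 13 mitochondrially encoded genes had a median of -0.05 and 0 calls, 0 of them with an unadjusted p under 0.05, and voom called 0. With doxorubicin alone the medians of these lists were -0.01 and -0.45.

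Means of the leading genes in the combination lay nearer to those of doxorubicin than to those of IN10018. With doxorubicin alone, 668 genes (6.30%) were higher and 241 (2.27%) lower, and with IN10018 alone 1 was higher and 0 lower, with 359 genes at an unadjusted p under 0.05. CXCL8 had a mean of 697 ± 66.7 FPKM with doxorubicin, 17.8 ± 9.85 FPKM with IN10018 and 797 ± 292 FPKM with the combination (SD, n = 3 each). NR1D1 stood at 37.7 ± 4.21, 5.23 ± 0.931 and 62.2 ± 16.9 FPKM in the same order, GADD45A at 57.0 ± 4.52, 7.27 ± 2.21 and 86.9 ± 19.7 FPKM, and NFKB2 at 10.4 ± 0.658, 1.80 ± 0.281 and 18.7 ± 7.81 FPKM. Among replication genes 21 of 48 were called higher with doxorubicin alone (median 0.54), and the median with IN10018 alone was -0.38. In the direct comparison of the combination with doxorubicin, 0 of 10595 genes were called in limma, 1730 had an unadjusted p under 0.05, and voom called 2. Its median over all genes was 0.24, so single values between these groups are to be read against that shift. The adjusted p of that comparison was 0.78 for CXCL8, 0.242 for NR1D1, 0.273 for GADD45A, 0.257 for NFKB2 and 0.0591 for SCD.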

How the data were processed

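RNA was sequenced from SK-OV-3 cells with a strand-marking kit (NEBNext Ultra Directional). Per the labels, the authors aligned reads to hg38 and made the FPKM values deposited for each library with TopHat, Cufflinks and Cuffdiff, in versions that the sources used here do not give. Each file lists 60623 genes, and 58516 identifiers were found in the GENCODE 29 names. All 24090 genes above 0 in at least 3 libraries gave whole reads (relative tolerance 3e-08), so 8032828 to 12900095 reads per library were recovered. More reads give less counting error for genes of few FPKM.

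Rows sharing a symbol were summed, genes reaching 1 FPKM in 3 or more of the 6 compared libraries were kept, and log2(FPKM + 1) was fitted in limma 3.58.1 (R 4.3.3) with 4 treatments, 12 libraries, 8 residual degrees of freedom and a mean-variance trend. Tests were two-sided, with Benjamini-Hochberg adjustment over 10595 genes. In simulated data, 43 of 100 genes changed by a log2 of 1 and 93 of 100 changed by 2 were called, with 5 calls among 10395 unchanged genes. The simulation drew each gene and library independently, without the shared shift or the leading axis of spread of the real libraries. Its count of false calls therefore cannot be carried over to them. Alternatives covered the pseudocount, the filter, scaling, the libraries and covariates fitted, a correction for GC content and length (loess), voom on recovered reads, and leaving out each library.

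The genes named were the 15 largest increases and decreases of protein-coding called genes with no overlap and a group mean reaching 5 FPKM, up to 6 called and 3 uncalled members per list, and a few genes of FAK, danger signals and ERBB2. Some genes and a list that these rules cover are not reported here. CXCL1, CXCL3, NFKBIA, RFC3 and LIG1 were added after their values were seen, for their promoters. Members and gene lists were chosen with earlier results of these data known. Promoters came from RefSeq (GRCh38.p14).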

Additional observations from a re-analysis of the deposited data

How the results depend on the processing

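Beside 1597 genes higher and 134 lower (median 0.20), the counts were 1132 and 127 without a filter on low values (median 0.0251) and 755 and 73 with a minimum of 5 FPKM, where fewer genes were tested. They were 840 and 432 with median-ratio scaling (median -0.0258), 942 and 517 with quantile normalization (-0.0363), and 1251 and 1114 with the GC and length correction (-0.0292). Fitting only the 6 libraries gave 932 and 80. Without the 3 libraries that stood apart, 1434 and 199 were called, and voom gave 1569 and 113. Leaving out 1 library gave 682 (combination replicate 3) to 2158 (combination replicate 1) higher and 53 to 190 lower. The cause of these differences was not tested. With the replicate number as a replicate block, 1213 and 84 genes were called. The numbers were not taken as pairs, since same-numbered combination and DMSO libraries correlated at 0.51, 0.75 and 0.09 in their deviations, and combination replicate 3 correlated better with DMSO replicate 1 (0.20). Of 109 called genes named, 79 kept their call in every alternative in which they were tested and none reversed.

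Some genes that were not called changed sign. With median-ratio scaling the log2 fold changes were -0.24 for B2M, -0.24 for HMGB1, -0.10 for HSP90B1, -0.049 for PCNA and -0.19 for PTK2. With quantile normalization they were -0.052 for HMGB1, -0.0013 for HSP90B1 and -0.25 for PTK2. With the GC and length correction they were -0.13 for B2M, -0.056 for H2AX, -0.12 for HMGB1, -0.0047 for HSP90B1 and -0.16 for PTK2. PTK2 was at -0.082 without the 3 libraries that stood apart and ranged from -0.19 to 0.17 over the fits without 1 library, B2M from -0.063 to 0.27, and ITGB1 from -0.42 to 0.042.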
